A study of Xenopus laevis with 5 samples.

Results

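Heat shock proteins, J proteins and chaperonins were followed in whole Xenopus laevis embryos treated with a morpholino against MOV10, an RNA helicase that works with Argonaute proteins. The set holds every gene model of the deposited annotation whose symbol, without the .L or .S ending that marks the 2 subgenomes of this tetraploid frog, begins as a heat shock protein (hsp), a J protein (dnaja, dnajb, dnajc) or a chaperonin subunit (cct, tcp1), or is a heat shock factor (hsf) or a BAG cochaperone (bag). The name rule found 137 of 45099 gene models, under 81 symbols, and read no measured value. The embryos received 18 ng of a translation-blocking MOV10 morpholino (2 libraries, replicates 2 and 3) or 18 ng of a control morpholino (3 libraries, replicates 1 to 3). A morpholino is a stable antisense oligonucleotide. All were collected at stage 10.5, the early gastrula, from the eggs of 2 mating pairs, and the labels call the libraries biological replicates. The sources used here do not say which mating pair gave which library, so the morpholino cannot be told apart from a difference between clutches or in developmental age. No strain, transgene or other treatment is given in the labels.

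Chaperones bind proteins that are not yet folded or have lost their fold. Hsp70 proteins do so in a cycle of ATP hydrolysis that J proteins start. Nucleotide exchange factors, among them the Hsp110 and several BAG proteins, reset this cycle. Hsp90 proteins act later on client proteins such as kinases and receptors. The chaperonins are closed chambers, CCT in the cytosol, which folds actin and tubulin, and Hsp60 with its lid Hsp10 in mitochondria, while small heat shock proteins hold unfolded chains and heat shock factors switch on many of these genes under stress.

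Between 11347400 and 13515787 reads per library lay on the sense strand of genes. Levels are counts scaled to library size (CPM) after scaling by trimmed mean of M values (TMM), and differences are log2 fold changes of MOV10 over control. RNA of mov10.L was at 32.8 and 25.99 CPM in the MOV10 libraries, against 7.03, 2.69 and 5.86 CPM in the controls, a log2 fold change of 2.49 ± 0.40 (SE; edgeR quasi-likelihood test, Benjamini-Hochberg adjusted p = 0.0018). As the morpholino blocks translation, this RNA level checks neither the labels nor the knockdown. The label of an early gastrula was set against marker lists. Of 21 tested models of early gastrula genes (such as eomes and chrd), 15 were lower in the MOV10 libraries, none was higher and all were detected, with summed levels of 1133 ± 378 CPM in MOV10 (SD, n = 2) and 2402 ± 356 CPM in control embryos (SD, n = 3). Muscle genes, which mark a later tissue, summed to 16631 ± 1707 CPM in MOV10 and 231 ± 168 CPM in control embryos; 25 of 27 tested models were higher, and 4 of 42 models had no read in MOV10 against 13 in control libraries. Genes of multiciliated cells summed to 488 ± 9.40 CPM in MOV10 and 122 ± 55.3 CPM in control embryos, with 10 of 17 models higher. None of 11 models of erythroid genes passed the filter. Both MOV10 libraries lay above every control for the muscle and the multiciliated lists and below every control for the early gastrula list, and the part of this in the chaperone values was not tested. In whole embryos, fewer cells of a type and less RNA per cell cannot be told apart.

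Of the 137 chaperone models, 113 passed the filter on low counts and 24 did not. In MOV10 embryos 15 copies rose and 23 fell, while 75 missed the threshold (edgeR's quasi-likelihood test, threshold 0.05 on the adjusted p over all tested genes). That is 33.6% called, against 42.1% of all 20049 genes tested. In each direction, the background was 24.4% of genes called higher and 17.7% called lower, and the members had 13.3% and 20.4%. Their median log2 fold change was -0.25, also with the genes that had almost no reads in 1 group set at their bound, against 0.08 over all genes. Reads of all members together made up 1.12 and 1.08% of gene counts in MOV10 and 1.62, 1.55 and 1.64% in control libraries, so every MOV10 library was below every control. Most of this lay outside hspa8, the main Hsp70: without it the sums were 6527 ± 3.80 CPM in MOV10 (SD, n = 2) and 9469 ± 162 CPM in control embryos (SD, n = 3). Scaling by total gene counts in place of TMM gave 13 members higher and 35 lower, with the calls on the higher side at 27.1% in place of 39.5%; it moved the median of all genes to -0.12. No called member changed direction under any alternative that gave it a value.

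**Figure D1:**
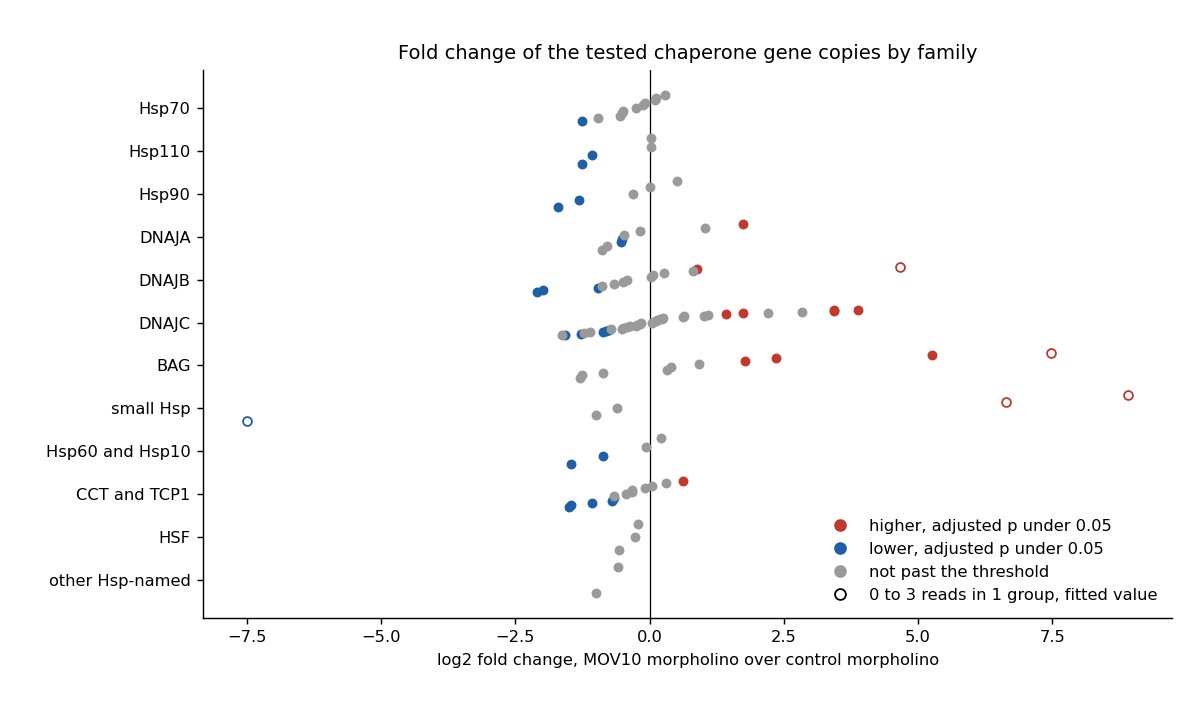
Log2 fold change (MOV10 morpholino over control morpholino, x axis) of the 113 tested chaperone gene copies, by family. Each point is 1 gene copy, coloured by the edgeR call, and open points had 0 to 3 reads in 1 group, so their place is a fitted value only. The 4 called BAG copies lie to the right, while the called copies of Hsp70, Hsp110, Hsp90 and Hsp60 with Hsp10 lie to the left.

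The tested Hsp70 genes of the cytosol did not pass the test. No model of the set is named hspa1, the stress-inducible form, so that form is not covered here. The constitutive Hsc70 gene hspa8 had the most reads of the set. Its L copy (Xelaev18035213m.g, chromosome 7L) stood at 2954 and 2347 CPM in MOV10 libraries, against 2867, 3195 and 3416 CPM in controls, a log2 fold change of -0.25 ± 0.17 (SE). The S copy (Xelaev18037286m.g, 7S) stood at 2916 and 2651 CPM in MOV10 libraries, against 2421, 2779 and 2615 CPM in controls, 0.10 ± 0.15. For both copies the groups overlapped. In the whole Hsp70 family, 1 of 11 tested copies fell, the mitochondrial hspa9.L described below, and none rose. That is 9.09% lower, against 17.7% of all tested genes, and 0% higher, against 24.4%. Without MOV10 replicate 3, 2 copies were lower, and 3 were when scaled by total gene counts; 1 was higher without the filter on low counts.

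Among the Hsp110 genes, which exchange the nucleotide of Hsp70, both copies of hsph1 fell. The S copy (Xelaev18016180m.g, 2S) was at 47.3 and 46.3 CPM in MOV10 and at 90.9, 128 and 119 CPM in control libraries (log2 fold change -1.27 ± 0.23, edgeR adjusted p = 0.00296). The L copy (Xelaev18013725m.g, 2L) was at 15.9 and 19.8 CPM in MOV10 and at 42.3, 34.6 and 35.9 CPM in control libraries (-1.07 ± 0.25, edgeR adjusted p = 0.00979, and 0.0628 without MOV10 replicate 2). In neither copy did the groups overlap. The other Hsp110 gene, hspa4, had log2 fold changes of 0.03 ± 0.21 for L and 0.03 ± 0.22 for S, with overlapping groups. The called BAG copies went in the other direction and are given below.

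J proteins of class A and B, many of them partners of cytosolic Hsp70, had calls in both directions. Those of the endoplasmic reticulum are given below. The gene dnaja4.1.L (Xelaev18007338m.g, 1L) rose to 105 and 90.6 CPM in MOV10 libraries, against 25.4, 29.3 and 33.4 CPM in controls, a log2 fold change of 1.74 ± 0.22 (edgeR adjusted p = 0.000583). Its S copy had no read in any library. The general partner dnaja2 had lower values, at 101 ± 12.1 CPM in MOV10 (SD, n = 2) and 146 ± 6.90 CPM in control embryos (SD, n = 3) for L, and at 149.5 ± 10.6 CPM in MOV10 and 214 ± 5.96 CPM in control embryos for S. These small differences (-0.54 ± 0.19 and -0.52 ± 0.18, edgeR adjusted p = 0.0495 and 0.0446) passed narrowly, and leaving out any 1 of the 5 libraries ended both calls, with edgeR adjusted p of 0.0799 to 0.24 for L and 0.0808 to 0.198 for S. Of dnajb1.L (Xelaev18018953m.g, 3L), the J protein best known from the heat shock response, MOV10 libraries held 32 reads in all and controls 2, a ratio of 29.7 per library size (95% counting interval 7.57 to 255). Its edgeR adjusted p was 0.0138. Without MOV10 replicate 3 the call was lost, at a ratio of 38.8 per library size. Without MOV10 replicate 2 the copy did not pass the filter on low counts, at a ratio of 20.4. Without control replicate 1, which held both control reads, the level was at least 12.3-fold higher. The S copy had no read. The gene dnajb13.S (Xelaev18016452m.g, 2S), which codes for a protein of the radial spokes of motile cilia, was at 25.97 and 28.8 CPM in MOV10 and 10.98, 16.95 and 16.6 CPM in control libraries (0.88 ± 0.28, edgeR adjusted p = 0.0348). Its call was lost without control replicate 1 or 3 or either MOV10 library (edgeR adjusted p = 0.0893, 0.0562, 0.0787 and 0.134), and the multiciliated markers moved with it, as given above.

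Members placed in the endoplasmic reticulum by textbook location, a grouping made after their values had been seen, fell or did not pass. Of 20 tested copies in it, 6 fell and none rose. That is 30% lower, against 17.7% of all tested genes, and 0% higher, against 24.4%. When libraries were scaled by total gene counts, 11 copies fell, and 4357 of all 20049 genes were then lower. The median log2 fold change of the 20 copies was -0.77. The summed level of all 21 models in the grouping was 1570 and 1900 CPM in MOV10 and 3619, 3150 and 3685 CPM in control libraries, without overlap. The grouping left out dnajc18 and dnajc16, J protein genes that can also be placed in this compartment. Of these, dnajc18.L was called higher (3.88 ± 0.99, edgeR adjusted p = 0.0134). The copies dnajc18.S (2.83 ± 1.19), dnajc16.L (2.20 ± 0.88) and dnajc16.S (-0.24 ± 0.64) did not pass, so the counts depend on the grouping. The gene hsp90b1 codes for GRP94, the Hsp90 of this compartment, and both copies fell. Its L copy (Xelaev18017384m.g, 3L, 42172058 to 42184617) was at 380 and 508 CPM in MOV10 and at 1510, 1221 and 1593 CPM in control libraries, -1.70 ± 0.21 on the log2 scale (edgeR adjusted p = 0.000549). Its S copy (Xelaev18021302m.g, 3S) was at 33.7 and 43.8 CPM in MOV10 and at 92.7, 82.2 and 115 CPM in control libraries, -1.32 ± 0.25 (edgeR adjusted p = 0.00351). Every MOV10 library lay well below every control for both. The Hsp70 of the compartment, BiP, is coded by hspa5, and neither of its copies passed the threshold. Its L copy was at 211 and 321 CPM in MOV10 and 237, 235 and 260 CPM in control libraries, with overlap (0.12 ± 0.22). Its S copy was at 305 and 399 CPM in MOV10 and 530, 420 and 544 CPM in control libraries, lower without overlap (-0.50 ± 0.21, edgeR adjusted p = 0.0804).

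Of the 6 copies of this grouping that fell (30% of 20 tested, against 17.7% of all tested genes), 4 were J protein copies. The other tested J protein copies in the grouping did not pass. For dnajb11.S (ERdj3; Xelaev18047423m.g, 9_10S) the levels were 102 and 103 CPM in MOV10 and 498, 394 and 433 CPM in control libraries, a log2 fold change of -2.11 ± 0.20 (edgeR adjusted p = 0.000153). The L copy, at 134 and 140 CPM in MOV10 and 211, 182 and 185 CPM in control libraries, narrowly missed the threshold (-0.49 ± 0.18, edgeR adjusted p = 0.0603). The groups did not overlap for either copy. For dnajb9.S (ERdj4, which restrains the stress sensor IRE1) the means were 4.81 ± 1.75 CPM in MOV10 and 19.1 ± 1.82 CPM in control embryos (-1.99 ± 0.35, edgeR adjusted p = 0.00264), while dnajb9.L had overlapping groups (-0.66 ± 0.50). The membrane J protein gene dnajc14.S was at 13.8 and 9.64 CPM in MOV10 and 34.3, 41.2 and 29.4 CPM in control libraries (-1.58 ± 0.30, edgeR adjusted p = 0.00357). Both dnajc14.L (-0.43 ± 0.56) and dnajb12.S (-0.42 ± 0.28) had overlapping groups and did not pass. For dnajb12.L the means were 21.4 ± 0.33 CPM in MOV10 and 41.9 ± 6.90 CPM in control embryos (-0.97 ± 0.25, edgeR adjusted p = 0.0144, but 0.062 without MOV10 replicate 2 and 0.0548 without MOV10 replicate 3). Other genes of this compartment's folding and stress response, none of them members, were lower for 11 of 38 tested copies and higher for 2, and 9 and 1 without MOV10 replicate 2. Of this list, 28.9% were lower and 5.26% higher, against 17.7% and 24.4% of all tested genes. Its 4 copies with the smallest adjusted p began with sdf2l1.S, a partner of ERdj3 (-3.25 ± 0.29), and the disulfide isomerase gene pdia6.S (-1.74 ± 0.28). The others were eif2ak3.L, the stress sensor PERK (-1.96 ± 0.32), and xbp1.L, a transcription factor of the response (-1.16 ± 0.23). The 2 copies that rose were syvn1.S (1.62 ± 0.33) and ern1.S, the stress sensor IRE1 (1.65 ± 0.46). The copy ern1.L did not pass (-0.51 ± 0.26).

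**Figure D2:**
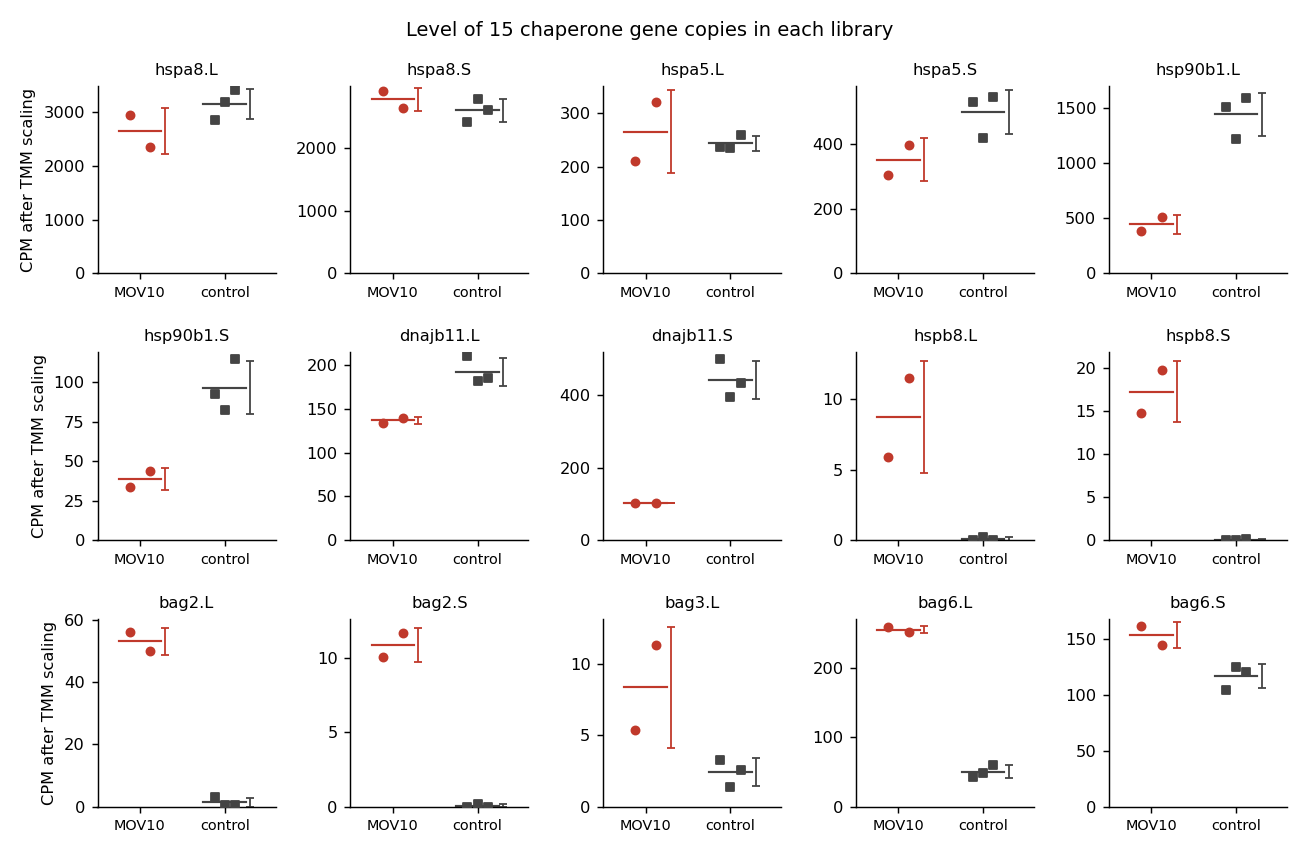
Level (CPM after TMM scaling, each panel with its own axis from 0) of 15 chaperone gene copies in each library. Points are libraries, horizontal lines group means and bars the SD between libraries (n = 2 for MOV10, n = 3 for control). The groups overlap for hspa8.L, hspa8.S and hspa5.L, and are apart for the other 12 copies. Of these 12, hspa5.S, dnajb11.L and bag6.S were not called. The share of all genes apart in this way is not given here.

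The Hsp90 genes of the cytosol did not pass. For hsp90ab1, the constitutive form, the S copy averaged 436 ± 26.2 CPM in MOV10 and 542 ± 49.9 CPM in control embryos (-0.32 ± 0.17), and the L copy 124 ± 6.06 CPM in MOV10 and 123 ± 28.7 CPM in control embryos (0.01 ± 0.24). For hsp90aa1.1.L the means were 36.6 ± 5.18 CPM in MOV10 and 25.9 ± 8.25 CPM in control embryos (0.50 ± 0.31). Among partner proteins of Hsp70 and Hsp90 that are not members, 5 of 38 tested copies rose and 9 fell. That is 13.2% and 23.7%, against 24.4% and 17.7% of all tested genes. These counts depended on single libraries: 2 were higher and 5 lower without MOV10 replicate 2, 2 and 6 without control replicate 3, 3 and 6 without control replicate 1, and 3 and 7 without control replicate 2. The 4 with the smallest adjusted p were unc45b.L and unc45b.S, a chaperone of muscle myosin, which rose by 4.04 ± 0.34 and 2.52 ± 0.36 on the log2 scale, the mitochondrial exchange factor gene grpel1.L, which fell by 1.36, and ahsa1.S, an activator of Hsp90, which fell by 1.49. Both unc45b copies moved in the same libraries as the muscle markers above.

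The chaperonin CCT is built of 8 different subunits, and the rule found 13 copies of 7 of them, all tested. In MOV10 embryos 5 fell, all of them S copies, 1 rose and 7 did not pass; their median log2 fold change was -0.44 and their summed level 1717 ± 120 CPM in MOV10 (SD, n = 2) and 2368 ± 174 CPM in control embryos (SD, n = 3). Of the 13 copies, 38.5% were lower and 7.69% higher, against 17.7% and 24.4% of all tested genes. The 2 copies with the largest decrease were tcp1.S and cct5.S. For tcp1.S (Xelaev18028947m.g, 5S, 35273215 to 35288493) the levels were 138 and 125 CPM in MOV10 and 354, 440 and 327 CPM in control libraries (-1.51 ± 0.21, edgeR adjusted p = 0.00085). For cct5.S (Xelaev18003848m.g, Scaffold59) they were 70.8 and 71.2 CPM in MOV10 and 182, 232 and 173 CPM in control libraries (-1.46 ± 0.21, edgeR adjusted p = 0.00114). In both, each MOV10 library was far below each control. The other decrease that held with each library left out in turn was that of cct8.S, at 37.5 and 40.4 CPM in MOV10 and 71.4, 101 and 71.7 CPM in control libraries (-1.06 ± 0.24, edgeR adjusted p = 0.00859).

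The remaining chaperonin calls were small and depended on single libraries. The copies of cct6a went apart: L averaged 195 ± 19.9 CPM in MOV10 and 127 ± 17.6 CPM in control embryos (0.62 ± 0.20, edgeR adjusted p = 0.0348), and S 100.1 ± 14.3 CPM in MOV10 and 159 ± 25.6 CPM in control embryos (-0.67 ± 0.22, edgeR adjusted p = 0.0372). The call of cct6a.L was lost without control replicate 1 or 3 or either MOV10 library (edgeR adjusted p of 0.0664 to 0.183), and that of cct6a.S without control replicate 1 or 2 or either MOV10 library (0.0577 to 0.189). For cct7.S the means were 49.0 ± 3.85 CPM in MOV10 and 79.9 ± 13.3 CPM in control embryos (-0.70 ± 0.23, edgeR adjusted p = 0.0366), with the call lost without control replicate 1 or 2 or either MOV10 library (0.0837 to 0.151). Without control replicate 1 or 2 or MOV10 replicate 3, 3 subunit copies were lower, and 8 were lower when scaled by total gene counts. The copies of cct2 had log2 fold changes of -0.09 ± 0.18 (L) and 0.31 ± 0.21 (S), and those of cct4 had -0.67 ± 0.25 (L, edgeR adjusted p = 0.0591) and 0.05 ± 0.20 (S). The L copies of tcp1, cct7 and cct8 were at -0.44 ± 0.20, -0.33 ± 0.22 and -0.33 ± 0.17 and did not pass. Models matched by the authors to human CCT3 (2 on chromosome 8S) and CCT5 (1 on Scaffold164) carried no such symbol, so they lay outside the rule; those tested did not pass (-0.09 ± 0.19, 0.41 ± 0.23 and -0.53 ± 0.22). A further list of 21 tested copies held prefoldin, which hands actin and tubulin to CCT, the tubulin cofactors and also pdcl3.S. Of these copies, 4 rose and 4 fell (19.05% each, against 24.4% and 17.7% of all tested genes). This split depended on the setting, with 2 higher and 4 lower without control replicate 2, 3 higher and 2 lower without MOV10 replicate 2, and 3 higher and 7 lower when scaled by total gene counts. The smallest adjusted p were those of pdcl3.S, a phosducin-like CCT partner (6.44 ± 0.72, on 9 control reads), the prefoldin subunit genes vbp1.S (-1.79 ± 0.25) and pfdn1.S (-2.17 ± 0.32), and tbcd.L, a tubulin cofactor (1.97 ± 0.31).

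**Figure D3:**
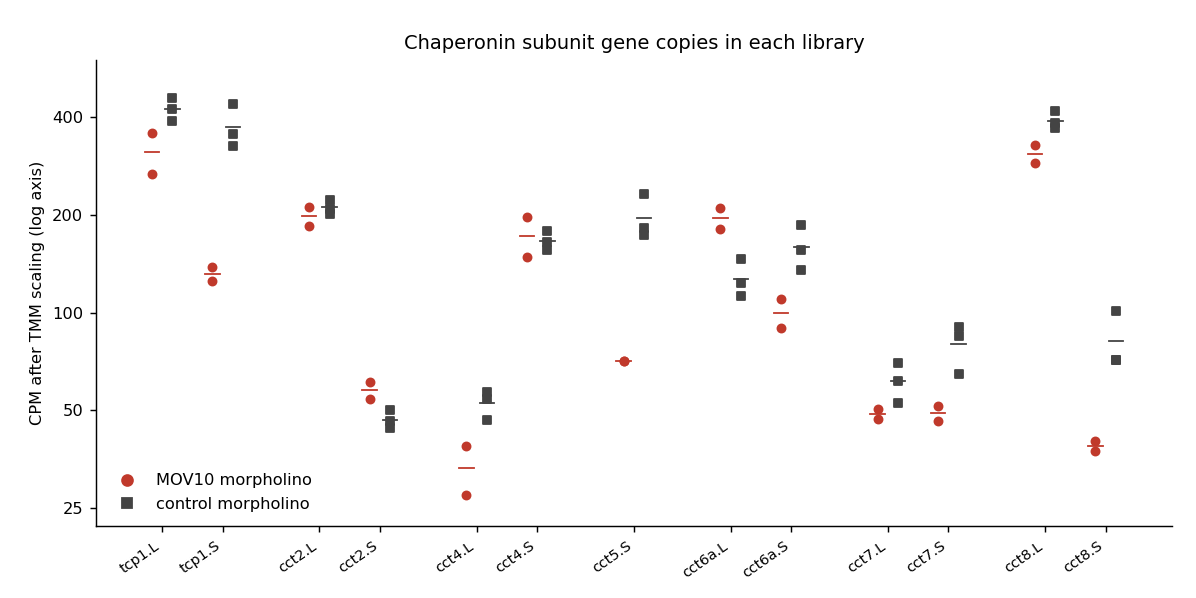
Level (CPM after TMM scaling, log axis) of the 13 chaperonin subunit gene copies. Points are libraries and short lines group means, with the 2 MOV10 libraries left of the 3 control libraries for each copy. Both MOV10 libraries lie below all controls for cct4.L, cct5.S, cct6a.S and both copies of cct7, cct8 and tcp1, and above them for cct2.S and cct6a.L. Of these, cct2.S, cct4.L, cct7.L, cct8.L and tcp1.L were not called. With 2 against 3 libraries such separation alone reaches only an exact two-sided permutation p of 0.2. The share of all genes separated in this way is not given here.

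In mitochondria, the genes of the Hsp60 chamber and of its Hsp70 each fell in 1 of their 2 copies. Of 14 tested copies grouped by textbook location, 4 fell and 1 rose, with a median log2 fold change of -0.08. That is 28.6% lower and 7.14% higher, against 17.7% and 24.4% of all tested genes. For hspd1.S (Hsp60; Xelaev18047428m.g) the levels were 21.5 and 31.8 CPM in MOV10 and 82.6, 57.1 and 82.0 CPM in control libraries (-1.47 ± 0.28, edgeR adjusted p = 0.0041). For hspe1.S (Hsp10; Xelaev18047429m.g) they were 19.3 and 22.1 CPM in MOV10 and 37.0, 38.9 and 36.8 CPM in control libraries (-0.86 ± 0.23, edgeR adjusted p = 0.0177, and 0.0956 without MOV10 replicate 2). The groups were apart in both. The L copies, in contrast, had overlapping groups: hspd1.L averaged 49.0 ± 0.51 CPM in MOV10 and 51.2 ± 7.88 CPM in control embryos (-0.06 ± 0.22), and hspe1.L 12.5 ± 0.76 CPM in MOV10 and 10.8 ± 2.42 CPM in control embryos (0.22 ± 0.32). The 2 genes are neighbours on opposite strands. In the Xenla9.1 build the L models lie on 9_10L at 84617077 to 84636364 and 84636857 to 84642102, 492 bases apart, and the S models on 9_10S at 76202065 to 76218161 and 76217703 to 76224017, overlapping by 459 bases. Counts are by strand, so the overlap does not merge their reads.

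For hspa9, the Hsp70 of the mitochondrial matrix, the copy that fell was L (Xelaev18016934m.g, 3L), at 36.7 and 34.0 CPM in MOV10 and 78.1, 79.1 and 97.97 CPM in control libraries (-1.27 ± 0.22, edgeR adjusted p = 0.00262). The S copy, at 98.3 and 75.03 CPM in MOV10 and 89.8, 92.4 and 95.1 CPM in control libraries, did not pass (-0.09 ± 0.20). The J protein gene of the import motor, dnajc19.L, fell by 0.75 on the log2 scale (edgeR adjusted p = 0.0166), with the call lost without control replicate 3 (0.0539) or MOV10 replicate 3 (0.111). The mitochondrial J protein gene dnajc28.L rose to 9.78 and 11.3 CPM in MOV10, against 3.68, 3.83 and 1.98 CPM in control libraries (1.73 ± 0.42, edgeR adjusted p = 0.0106). Of 20 tested copies of other genes of mitochondrial protein upkeep, 2 rose and 1 fell. These shares were 10% and 5%, against 24.4% and 17.7% of all tested genes. The protease gene lonp1.L rose by 1.78 ± 0.33 and timm44.S, a part of the import motor, by 1.69 ± 0.38, and the protease gene yme1l1.S fell by 1.41.

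The largest increases of the set were in a small heat shock protein and in BAG proteins. Both copies of hspb8, a small heat shock protein that works with BAG3 in clearing damaged proteins and is abundant in muscle, were nearly absent from controls. The S copy (Xelaev18010705m.g, 1S, 138291469 to 138314513) was at 14.8 and 19.7 CPM in MOV10 libraries, and 1 read was found in all control libraries together. Its ratio of 678 has a 95% counting interval of 121 to 26864 (edgeR adjusted p = 7.27e-05). The L copy (Xelaev18007906m.g, 1L) was at 5.93 and 11.5 CPM in MOV10 libraries, with 3 reads in all controls, a ratio of 114 (38.5 to 559; edgeR adjusted p = 0.00102). All control reads of each copy came from 1 library: without control replicate 3 the S copy was at least 156-fold higher, and without control replicate 2 the L copy at least 78.6-fold. Without control replicate 1 the ratios were 420.6 for S and 70.9 for L. By contrast hspb1.S (Hsp27; Xelaev18015319m.g) had no read in MOV10 libraries and 75 in controls, at least 13.5-fold lower against a floor of 3 reads over the group (edgeR adjusted p = 0.00705). Without MOV10 replicate 2 or 3 that bound was 6.73-fold or 6.76-fold, as the same floor then stands on 1 library. Its L copy overlapped between groups (-1.01 ± 0.88).

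Of 10 tested BAG copies, 4 rose and none fell, with a median of 0.66; without MOV10 replicate 3, 3 were higher and 1 lower. Of the 10 copies, 40% were higher and 0% lower, against 24.4% and 17.7% of all tested genes. The gene bag2, whose protein restrains the ubiquitin ligase CHIP, rose in both copies. The L copy (Xelaev18027370m.g, 5L, 92122339 to 92125754) was at 56.1 and 49.9 CPM in MOV10 and at 3.08, 0.407 and 0.496 CPM in control libraries, 5.26 ± 0.69 on the log2 scale (edgeR adjusted p = 0.000686). Control replicate 1 held most of the control reads, and without it the difference was 6.84. For bag2.S, MOV10 libraries had 231 reads and controls 2, both in replicate 2, a ratio of 214 (58.6 to 1778; edgeR adjusted p = 0.00031); without that library it was at least 98.2-fold higher, and without control replicate 1 the ratio was 133. The gene bag6, whose protein handles membrane proteins on their way from the ribosome, differed by copy. Its L copy (Xelaev18039186m.g, 8L) was at 259 and 252 CPM in MOV10 and 41.98, 48.7 and 60.1 CPM in control libraries, 2.35 ± 0.21 (edgeR adjusted p = 0.000133). Its S copy, at 162 and 145 CPM in MOV10 and 105, 125 and 121 CPM in control libraries, missed the threshold (0.39 ± 0.19, edgeR adjusted p = 0.126).

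The partner of HSPB8, bag3, was less certain. Its L copy was at 5.36 and 11.3 CPM in MOV10 and 3.28, 1.39 and 2.56 CPM in control libraries (1.78 ± 0.52, edgeR adjusted p = 0.0245). The call was lost without control replicate 2 (0.0634), control replicate 3 (0.0618) or MOV10 replicate 3 (0.203, with a difference of 1.14). The S copy had 28 reads in MOV10 and none in control libraries, and fell below the filter. The log2 fold changes of bag1.L, bag4.L, bag4.S, bag5.L and bag5.S were 0.33 ± 0.30, -1.25 ± 0.82, -1.29 ± 0.65, 0.92 ± 0.78 and -0.87 ± 0.66, none past the threshold. The muscle markers made up 1.398 and 1.66% of gene counts in MOV10 and 0.00997, 0.0422 and 0.0195% in control libraries. They were thus higher in both MOV10 libraries, as were hspb8, bag2 and bag3. Among the controls, replicate 1 had the lowest muscle share and the most bag2.L (3.08 CPM) and bag3.L (3.28 CPM). Control replicate 2 had the highest muscle share and held all 3 control reads of hspb8.L and both control reads of bag2.S. The 1 control read of hspb8.S was in replicate 3. The part of muscle in these increases was not tested.

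The class C J proteins serve single tasks. Of their 35 tested copies, 5 rose and 5 fell (14.3% each, against 24.4% and 17.7% of all tested genes). Without MOV10 replicate 3, 3 were higher and 3 lower, and scaling by total gene counts gave 5 higher and 8 lower. Both copies of dnajc2, the ribosome-bound partner of Hsp70 on new chains, fell. The S copy (Xelaev18020970m.g, 3S) averaged 116 ± 3.90 CPM in MOV10 and 281 ± 24.5 CPM in control embryos (-1.28 ± 0.19, edgeR adjusted p = 0.00117). The L copy averaged 65.6 ± 11.7 CPM in MOV10 and 120 ± 3.19 CPM in control embryos (-0.87 ± 0.21, edgeR adjusted p = 0.0097, and 0.0721 without MOV10 replicate 3). The spliceosome-associated dnajc8.S fell to 142 and 126 CPM in MOV10, against 206, 262 and 238 CPM in control libraries (-0.81 ± 0.20, edgeR adjusted p = 0.0106, and 0.0632 without MOV10 replicate 3), while dnajc8.L overlapped (0.15 ± 0.24). The endosomal dnajc13 rose in both copies. Its S copy was at 9.97 and 9.36 CPM in MOV10 and 1.61, 0.896 and 0.0826 CPM in control libraries (3.44 ± 0.75, edgeR adjusted p = 0.00704, and 4.27 without control replicate 1). Its L copy averaged 12.6 ± 2.04 CPM in MOV10 and 4.74 ± 1.55 CPM in control embryos (1.41 ± 0.39, edgeR adjusted p = 0.0188, and 0.0502 without control replicate 2 or 0.0832 without MOV10 replicate 3). The gene dnajc24.S, which acts in diphthamide synthesis on a translation factor, was at 5.93 and 6.14 CPM in MOV10 and 0.268, 1.14 and 0.248 CPM in control libraries (3.44 ± 0.72, edgeR adjusted p = 0.00561; 4.49 without control replicate 2). For dnajc18.L the levels were 2.35 and 2.36 CPM in MOV10 and 0.201, 0.245 and 0 CPM in control libraries (3.88 ± 0.99, edgeR adjusted p = 0.0134), with the call lost without either MOV10 library (0.0823 and 0.087).

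Heat shock factors did not pass. Of their 6 models, 3 were tested, with log2 fold changes of -0.28 ± 0.59 for hsf1.L, -0.58 ± 0.50 for hsf1.S and -0.21 ± 0.25 for hsf2.L, and their groups overlapped. By edgeR's quasi-likelihood test none of the 3 had an unadjusted p under 0.05 either (0 of 3), and none was called by DESeq2. Both copies of hsf4 had no read, and hsf3.L had 3 reads in MOV10 and 2 in control libraries. At 1.74 ± 0.06 CPM in MOV10 and 2.12 ± 0.64 CPM in control embryos, hsf1.L had few reads, 37 and 83 in all. The smallest change detectable at this depth was not computed. The other members that failed the filter were 3 Hsp70 copies (hspa12a and hspa12b.L), 12 J protein copies, 4 small heat shock protein copies, bag3.S and hspbap1.L, and 8 models of the set had no read at all.

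The 2 subgenomes were then compared within the set. Of 62 tested L copies 10 rose and 7 fell; of 51 tested S copies 5 rose and 16 fell. The background for lower calls was 18% of all L and 18.5% of all S copies, and for higher calls 24.4% of L and 22.3% of S copies, beside 31.4% lower of the S and 11.3% lower of the L copies of the set. This is a count with no test, and that of the L copies changed with the setting: 15 of 62 were lower when scaled by total gene counts and 11 by DESeq2, and 5 were higher without MOV10 replicate 3. For the S copies 20 were lower when scaled by total gene counts and 12 without MOV10 replicate 3. Among the 43 genes with both copies tested, 10 (23.3%) had a lower S copy with an L copy that did not pass, where 9.46% of all 5370 pairs did, and 2 (4.65%; hspa9 and dnajb12) were the reverse, where 9.68% of all pairs were. Of the others, 4 (9.30%) fell in both and 3 (6.98%) rose in both, where 9.33% and 11.8% of all pairs did. The pair cct6a (2.33%) rose in L and fell in S, as 1.10% of all pairs did. In 2 pairs (4.65%) only L rose, against 9.07% of all pairs, and in none only S, against 8.04%. Neither copy passed in 21 pairs (48.8%), against 40.6% of all pairs.

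**Figure D4:**
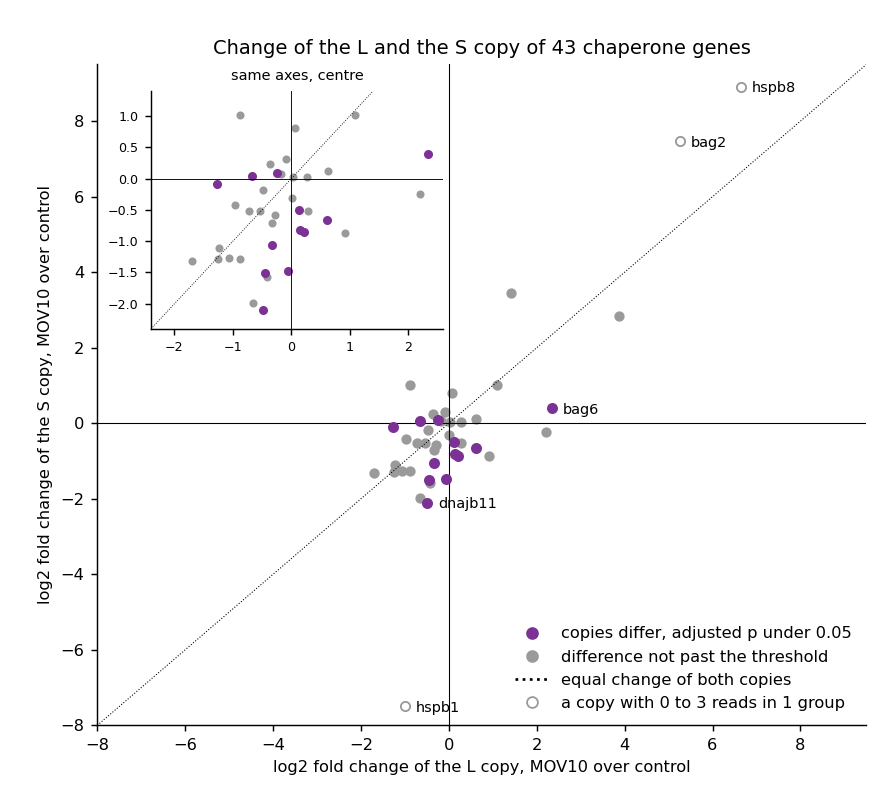
Log2 fold change (MOV10 over control) of the L copy (x axis) against that of the S copy (y axis) for the 43 chaperone genes with both copies tested, with the centre enlarged in the inset. The dotted line marks equal change, purple points are the 12 pairs whose ratio differed between groups by limma, and open points have a copy with 0 to 3 reads in 1 group. Of the purple points 9 lie below the line, where L stands higher relative to S.

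Since a call in 1 copy does not show that copies differ, the log2 ratio of L to S reads was tested in each library. This ratio does not depend on the library's scale. It differed between groups for 12 of 43 chaperone genes (27.9%; limma with Benjamini-Hochberg adjustment over all 5370 pairs), close to the 26.2% of all pairs. Of the chaperone pairs 9 moved toward L and 3 toward S, and of all pairs 717 toward L and 692 toward S. For dnajb11 the S copy led in controls and the L copy in MOV10 embryos, with log2 ratios of 0.39 and 0.44 in MOV10 and -1.24, -1.12 and -1.23 in control libraries, a difference of 1.61 ± 0.13 (limma adjusted p = 0.000142). The lead changed in the same way for bag6, at 0.68 and 0.79 in MOV10 and -1.31, -1.36 and -1.002 in control libraries (1.96 ± 0.18, limma adjusted p = 0.000179). It also did so for cct6a, at 1.22 and 0.72 in MOV10 and -0.34, -0.34 and -0.27 in control libraries (1.28 ± 0.18, limma adjusted p = 0.00121). For hspd1 the ratios were 1.19 and 0.61 in MOV10 and -0.74, -0.36 and -0.45 in control libraries (1.42 ± 0.25, limma adjusted p = 0.00361). In these 4 genes the sign of the ratio itself differed between the groups.

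The ratio of tcp1 moved toward L by 1.04 ± 0.15 and that of dnajc8 by 0.97 ± 0.18 (limma adjusted p = 0.00123 and 0.00421), while hspa9 moved toward S, by -1.15 ± 0.20 (limma adjusted p = 0.00305). The last 5 pairs were less certain, as each lost its call without at least 2 of the libraries in turn. They were hspa5 (0.60 ± 0.14; limma adjusted p = 0.0126, and 0.0528 or 0.115 without MOV10 replicate 2 or 3), hspa8 (-0.36 ± 0.08; 0.0142, and 0.059 or 0.148 without control or MOV10 replicate 3) and cct4 (-0.72 ± 0.18; 0.0163, and 0.0547 to 0.0785 without control replicate 2 or either MOV10 library). They also included cct8 (0.71 ± 0.21; 0.0338, and 0.0752 to 0.176 without the same 3 libraries) and hspe1 (1.10 ± 0.33; 0.0372, and 0.0503 to 0.161 without any 1 of the 5). Reads that fit both copies equally well map to several places and are not counted, so a level here is that of the reads that tell the copies apart. The share of reads that mapped to several places was 5.53% in MOV10 replicate 2 and 2.02 to 2.31% in the other 4 libraries.

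**Figure D5:**
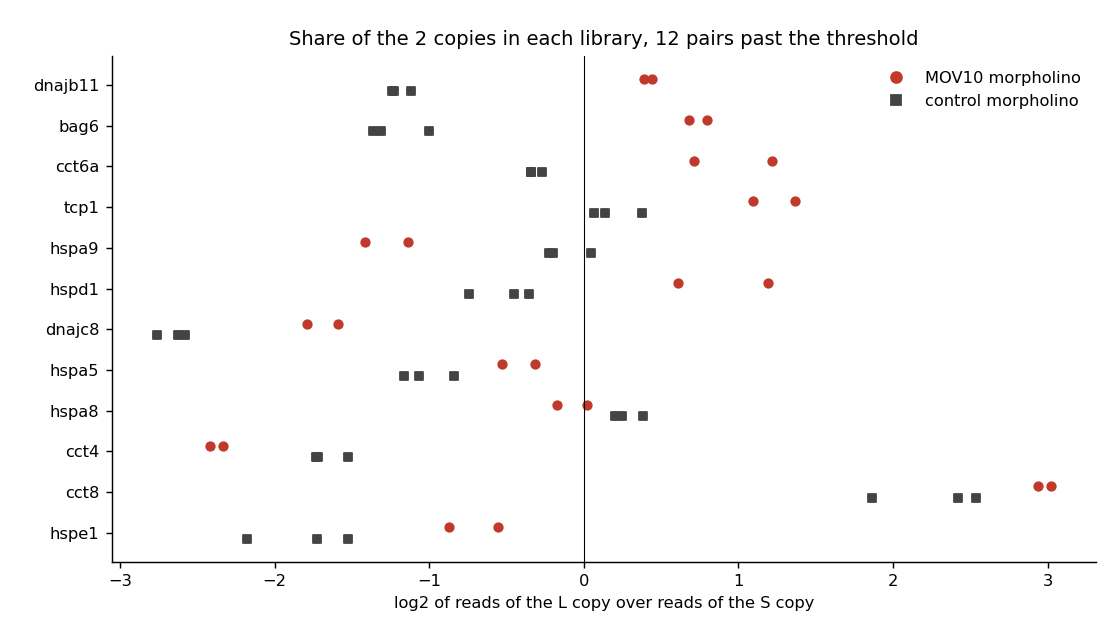
Log2 of the reads of the L copy over those of the S copy (x axis) for the 12 chaperone genes whose ratio differed between groups. Circles are the 2 MOV10 libraries and squares the 3 control libraries, with genes ordered by adjusted p from the top. For dnajb11, bag6, cct6a and hspd1 the MOV10 libraries lie right of 0 and the controls left of it.

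On the strand opposite to the gene, in a test chosen after seeing the data, 18 members had enough reads; 1 was higher (dnajc2.S) and 1 lower (dnajc9.L, on 0 and 1 reads in MOV10 and 5, 11 and 14 in control libraries), against a background of 22.6% of genes higher and 10.3% lower (edgeR, Benjamini-Hochberg adjusted p under 0.05).

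The authors' deposited table lists 112 of the members. At a false discovery rate under 0.05 it has 13 of these 112 higher and 14 lower, where 20.5% and 12.7% of its 19421 genes are called in these directions. Its p-values differ from those here: hspa8.S has a deposited p of 0.967, against an unadjusted 0.552 by edgeR's quasi-likelihood test. The 15 higher and 23 lower members given above are thus not directly comparable. With glmTreat against a 1.5-fold change, 13 of 113 members were higher and 14 lower here, and 3982 and 2424 of all 20049 genes. The authors' deposited log2 fold changes of the members differ from those fitted here by at most 0.0026.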

How the data were processed

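RNA of 2 MOV10 and 3 control morpholino libraries was measured; other libraries of the study were not analysed here. Per the labels' protocols, TRIZOL extraction preceded a strand-specific TruSeq mRNA preparation. The tools named in the submitters' processing notes are STAR 2.5.2a, edgeR 3.15.2, FastQC 0.11.4 and bcl2fastq 2.17.1.14. The deposited files hold raw read counts per gene in STAR's layout; the column for the reverse strand, sense for this kit, was used. Gene models, symbols, human matches and coordinates are from the authors' annotation table (Xenbase models on Xenla9.1, per the file's legend). The authors' deposited comparison gives log2 fold changes and log2 CPM, p-values with false discovery rates, and a signed fold change treated as a score.

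The 4 summary lines per file were left out of library sizes; gene reads were 7.51 to 10.4% of all reads. Libraries were compared in R 4.3.3 with edgeR 4.0.16: filterByExpr (minimum count 10), TMM scaling, glmQLFit and glmQLFTest, two-sided, group as the only term, Benjamini-Hochberg adjustment over 20049 genes. The SE is the log2 fold change divided by the square root of F. L against S ratios were tested with limma 3.58.1 (log2 CPM, prior count 2, variance trend) over 5370 pairs. Alternatives were DESeq2 1.42.0, other scalings and filters, glmTreat against 1.5-fold, counts without strand, a replicate block, and each library left out. Ratios on 1 to 3 reads have exact 95% binomial intervals, and 0 reads a floor of 3 over the group; these cover counting error only. Summed levels were not tested, as an exact two-sided permutation p for 2 against 3 libraries cannot go below 0.2. P-values set the group difference against the spread between these libraries, estimated with information shared across genes. The replicates differed beyond counting noise (chi-square per degree of freedom 20.4 to 35.0). As the mating pair of each library is not known, the p-values do not cover the spread between clutches.

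Members and lists were chosen with earlier results of these data known. Named are, per family, up to 6 called members with the smallest adjusted p (8 in DNAJC) with their other copy, all CCT, TCP1, HSF and BAG copies, and up to 4 called members of each further list. Outside this rule hspa8, hspa5, hspa4, hsp90ab1, hsp90aa1.1.L, dnajc19.L, mov10.L and the untested copies were named after their values were seen. So were dnajc16, syvn1.S, ern1 and the marker genes eomes and chrd.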

Additional observations from a re-analysis of the deposited data

Results flagged for a closer look

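Reads on the strand opposite to dnajc2.S, a signal outside the sense counts used above, were higher in MOV10 libraries, at 151 and 182 reads against 46, 94 and 61 in controls. Their log2 fold change was 1.46 (edgeR's quasi-likelihood test over the opposite-strand counts, chosen after seeing the data, adjusted p = 0.0312), where 22.6% of 2517 genes tested on that strand were higher. The sense reads of dnajc2.S fell, as given above. The gene overlaps pmpcb.S on the opposite strand by 821 bases. The share of gene reads on the sense strand was 88.3 and 89.3% in MOV10 and 92.1 to 93.9% in control libraries. The part of either in this signal was not tested.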

How the results depend on the processing

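The count of the 113 tested members lower in MOV10 embryos was 35 when scaled by total gene counts and 14 by glmTreat against a 1.5-fold change, against 23. Of all 20049 genes, 4357 and 2424 were lower under these 2 settings, against 3544. The number of members higher stayed within 1.5 times of 15 under each setting with all 5 libraries. With each library left out in turn, 9 to 14 members were higher and 18 to 20 lower, all genes higher numbered 3718 to 4405 and lower 2654 to 3012, and 7 to 11 copy pairs were called; the 9 and the 7 were without MOV10 replicate 3. Without the trend in limma's variance prior, 4 of the 12 copy pairs kept their call (dnajb11, bag6, cct6a and hspd1). Of all 20049 genes DESeq2 called 5176 higher and 3799 lower. Of the 113 tested members it called 16 higher and 27 lower, among them all 38 members called here. Of these 38, 36 were also called with DESeq2's size factors, 34 without the filter and 27 by glmTreat. No called member or copy pair reversed its direction under any setting that gave it a value. The shared numbers 2 and 3 do not show a pairing of the libraries: across genes, the difference between replicates 2 and 3 in MOV10 correlated with that in controls at r = 0.052. With the replicate block, 12 members were higher and 23 lower, 4118 and 3098 of all genes, and 12 copy pairs were called, but of the 38 members 32 and of the 12 pairs 11 were among these. The calls of cct7.S, both dnaja2 copies, dnajb1.L, dnajb13.S, dnajc18.L and the pair hspe1 were lost. Depth limits the members with few reads: 24 of 137 could not be tested, and a floor of 3 reads stood at 0.201 to 0.283 CPM per library.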
